A study of Mus musculus with 6 samples.

Results

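The BCL2 family holds the proteins that decide whether the outer membrane of the mitochondrion stays closed. Anti-apoptotic members such as BCL-2, BCL-XL, BCL-W and MCL-1 bind and restrain effectors such as BAK, which otherwise open pores and release cytochrome c. BOK is an effector that they restrain poorly. BH3-only proteins such as BIM, BID, BAD and BMF sense stress and either occupy the groove of the anti-apoptotic proteins or activate the effectors. In melanoma, MCL-1, BCL-XL and BIM are well known regulators of survival.

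The 10 family genes described here were Bcl2, Bcl2l1, Bcl2l2 and Mcl1 (anti-apoptotic), Bak1 and Bok (effectors), and Bid, Bad, Bmf and Bcl2l11 (BH3-only). They were picked by name, with earlier results of these data known. They were found among the 55335 gene rows of the count tables through their Ensembl identifiers in GENCODE M21. Bax, the other main effector, and Bbc3, which encodes the BH3-only protein PUMA, were read with the wider cell death lists. The RNA came from B16 mouse melanoma cells in culture, with 3 scrambled control libraries (replicates 1, 2 and 3, labelled WT) and 3 libraries of cells whose interferon gamma receptor gene Ifngr1 had been edited (IFNγR1KO replicates 10, 11 and 12). Both groups had carried the CRISPR vector with puromycin selection, the control guide was directed at GFP, and no interferon was added before harvest. The edited cells were grown from single cells, and it is not stated if 1 clone or several gave the 3 IFNγR1KO cultures, so clone and genotype cannot be told apart. The cultures were seeded in triplicate, so each p-value measures the spread between such cultures.

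Counts on genes were 9402640 to 10579788 in the controls and 6698956 to 7409479 in IFNγR1KO, and 13642 genes passed the filter on low counts. Ifngr1 RNA itself was 15.9 ± 1.35 counts per 1e+06 counts on genes (CPM, SD, n = 3) in controls and 11.5 ± 0.09 in IFNγR1KO, with no overlap and an adjusted p of 0.0729 (edgeR). Of the 7 melanocytic marker genes none passed the test, and their summed level was 31720 to 34660 CPM in controls and 27900 to 32830 CPM in IFNγR1KO. Of the immune, endothelial and keratinocyte markers, 7 of 11 had no count in any library and none exceeded 2 counts. The 3 fibroblast markers summed to 4.38 to 5.97 CPM in controls and 6.25 to 8.72 CPM in IFNγR1KO. Among them Col1a1 rose from 1.33 ± 0.36 to 5.20 ± 1.39 CPM (log2 fold change 1.96, adjusted p = 0.0017), Pdgfra was at −0.77 (adjusted p = 0.0866, no overlap) and Dcn had at most 1 count, and their part in the results below was not tested. Control 3 and IFNγR1KO 12 stood apart from their group mates: the departures of the 2 libraries correlated across 9626 genes (Pearson r = 0.821, a description across genes, which are not independent). The labels name no batch, and results that change without these 2 libraries are given both ways.

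The stretch that gives the BH3-only proteins their name is the BH3 motif, the helix through which members bind each other. Its coding sequence is shown for Mcl1, Bak1 and Bcl2l11, the members whose groups did not overlap, and for Bmf and Bid, the BH3-only genes that share the most bases with Bcl2l11 and, level with Bcl2l11 itself, with Bak1. Each is 45 bases from a GENCODE M21 transcript (GRCm38), 5′ to 3′ on the coding strand. Capitals mark the codon of the hydrophobic leucine at the core of the motif and, further on, the codons of a small residue and the aspartate that follows it.
Mcl1: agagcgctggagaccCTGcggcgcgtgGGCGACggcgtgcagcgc
Bak1: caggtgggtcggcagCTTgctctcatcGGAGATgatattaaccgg
Bcl2l11: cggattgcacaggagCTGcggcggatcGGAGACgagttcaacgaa
Bmf: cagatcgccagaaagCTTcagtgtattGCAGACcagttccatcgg
Bid: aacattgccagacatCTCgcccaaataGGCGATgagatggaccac

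The Mcl1 stretch lies in exon 1 of 3 (chr3:95659421-95659465, plus strand), that of Bak1 in exon 4 of 6 (chr17:27022528-27022572, minus strand) and that of Bcl2l11 in exon 3 of 4 (chr2:128147135-128147179, plus strand). Bmf lies at chr2:118545097-118545141 and Bid at chr6:120897286-120897330, both on the minus strand and in exon 4. Bmf and Bcl2l11 shared 26 of 45 bases and Bak1 and Bid 25 of 45. Over all pairs of the 10 genes the count ran from 15 to 27 of 45, with Bcl2l1 and Bcl2l2 highest. The counts are per gene and do not separate isoforms, such as the long and short forms of Bcl2l1 or the splice forms of Bcl2l11.

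Mcl1, Bak1 and Bcl2l11 had lower RNA in all 3 IFNγR1KO libraries than in any control, and Mcl1 alone passed the test across all genes. None of the 9 tested members was called higher. Calls made up 15.3% of all genes tested (7.73% higher and 7.62% lower), so 1 call among 9 is no more than the background. With a log2 fold change above 1 or below −1 also required, 3.25% and 1.96% of all genes were called, and no member. Groups did not overlap for 32.6% of all genes (16.6% in the lower direction), against 3 of 9 members, all lower. The median log2 fold change of the tested members was −0.11, and that of all genes −0.00. Bok, at 2 to 6 counts per library, did not pass the filter and was not tested.

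**Figure D1:**
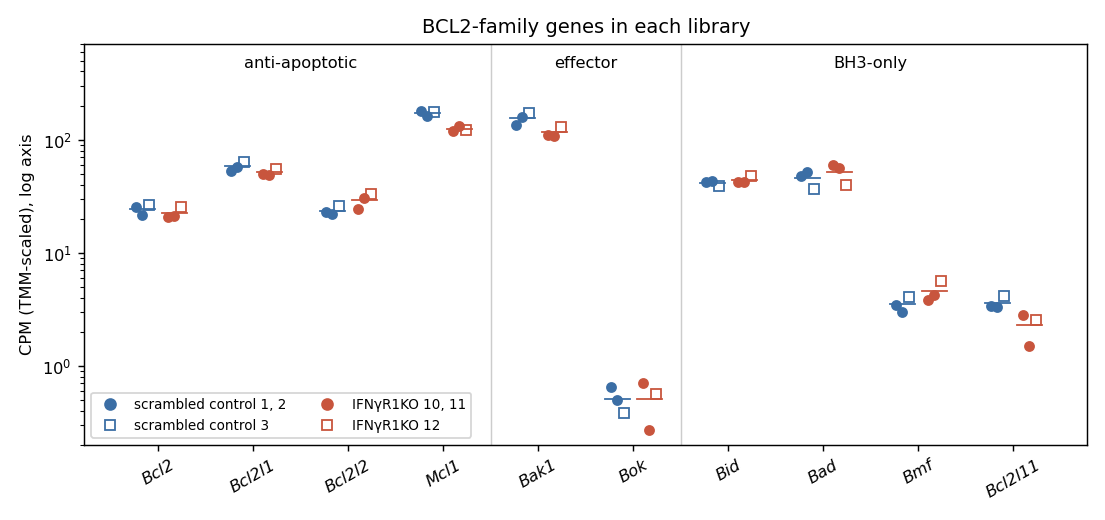
Level of each of the 10 genes in each library, in TMM-scaled CPM on a log axis, with a line at each group mean. Open squares are control 3 and IFNγR1KO 12. Mcl1, Bak1 and Bcl2l11 show no overlap between the groups, with Mcl1 at 162 to 178 CPM in controls and 119 to 132 CPM in IFNγR1KO.

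Mcl1 encodes a short-lived anti-apoptotic protein that restrains BAK and BIM, and lies at chr3:95658788-95663176. Its counts were 1642, 1626 and 1820 in controls 1, 2 and 3 and 841, 976 and 860 in IFNγR1KO 10, 11 and 12. These were 178, 162 and 176 CPM in the controls and 119, 132 and 121 CPM in IFNγR1KO. Every IFNγR1KO library lay below every control. The means were 172 ± 8.90 and 124 ± 6.98 CPM (SD, n = 3 each). The log2 fold change was −0.47 (SE 0.128, 95% interval −0.75 to −0.19), or 1.38-fold lower. The adjusted p was 0.0276 with edgeR's quasi-likelihood test and 0.00522 with DESeq2. The direction held when any 1 library was left out (log2 fold change −0.51 to −0.44), but the call was lost in 5 of those 6 fits: the adjusted p was 0.0751, 0.055 and 0.0597 without control 1, 2 or 3, and 0.129 and 0.0964 without IFNγR1KO 10 or 11. Without control 3 and IFNγR1KO 12 together, it was −0.44 with an adjusted p of 0.00937. In bulk RNA of this kind, fewer cells with the transcript and less transcript per cell cannot be told apart.

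The other anti-apoptotic genes did not pass the test. Bcl2l1, which encodes BCL-XL, was at 53.2, 57.7 and 63.0 CPM in controls and 49.6, 48.8 and 55.2 CPM in IFNγR1KO. The groups overlapped through control 1 and IFNγR1KO 12, and the log2 fold change was −0.18 (95% interval −0.47 to 0.11, adjusted p = 0.418). Bcl2, the founding member, was at 25.4, 21.5 and 26.2 CPM in controls and 20.9, 21.3 and 25.4 CPM in IFNγR1KO. Its log2 fold change was −0.11 (95% interval −0.45 to 0.23, adjusted p = 0.694), and its groups overlapped. With 1 library left out, the fold changes ran from −0.24 to −0.12 for Bcl2l1 and from −0.21 to −0.06 for Bcl2, none of them called.

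Bcl2l2, which encodes BCL-W, was the anti-apoptotic gene with a positive difference. It was at 22.8, 21.8 and 25.7 CPM in controls and 24.3, 30.2 and 32.8 CPM in IFNγR1KO. IFNγR1KO 10 lay within the control range and the other 2 above it. The log2 fold change was 0.31 (95% interval −0.03 to 0.66, adjusted p = 0.219). With a term in the fit for control 3 and IFNγR1KO 12 the adjusted p was 0.048 at the same size, and without both libraries it was 0.219. With 1 library left out, the log2 fold change ran from 0.21 to 0.42, without a call. Gm20521 covers 13.3% of the exonic bases of Bcl2l2 on the same strand and had 0 counts in each library. The intervals of Bcl2, Bcl2l1 and Bcl2l2 do not show that their RNA was the same in both groups.

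Bak1 encodes the pore-forming effector BAK, which MCL-1 and BCL-XL hold inactive, and lies at chr17:27019810-27029009. It had 1246, 1595 and 1771 counts in controls and 767, 801 and 928 in IFNγR1KO, or 135, 159 and 171 CPM against 109, 109 and 130 CPM. The highest IFNγR1KO library was below the lowest control, by a small margin. The log2 fold change was −0.42 (SE 0.144, 95% interval −0.73 to −0.11). The adjusted p was 0.0685 with edgeR and 0.0484 with DESeq2. It was 0.0105 without control 3 and IFNγR1KO 12, at a log2 fold change of −0.44, and 0.00065 with a term for those 2 libraries. Leaving out IFNγR1KO 12 alone gave −0.52 with an adjusted p of 0.0226. Each of the other 5 libraries left out gave no call, with log2 fold changes of −0.51 to −0.34 and adjusted p of 0.0552 to 0.28. In the fits with those 2 libraries left out, 22.3% of 13747 genes were called, and with the term 35.1% of 13642, so the background also rose. Ggnbp1 lies on the opposite strand over 25.5% of the exonic bases of Bak1 and was at 70.6 CPM in controls (log2 fold change −0.30, adjusted p = 0.202). The strand setting of the counting is not given in the sources used here, so reads of the 2 genes may not be separated there.

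Bok had 6, 5 and 4 counts in controls and 5, 2 and 4 in IFNγR1KO. A floor of 3 counts corresponds to 0.290 to 0.426 CPM in these libraries, so a fall in Bok was not detectable at this depth. Its groups overlapped, and a rise was not tested because Bok did not pass the filter.

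**Figure D2:**
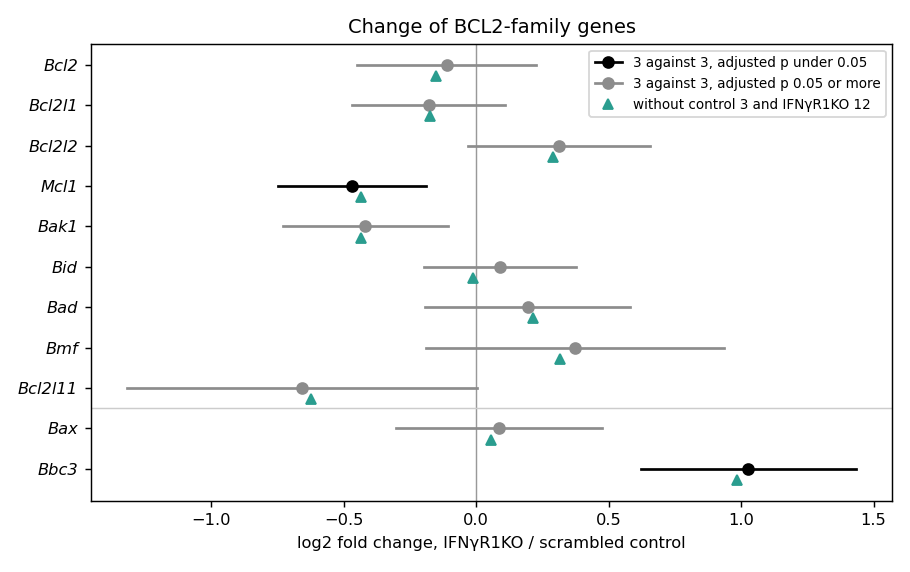
Log2 fold change of the 9 tested members, and below the line of Bax and Bbc3, with 95% intervals from 3 libraries against 3; triangles give the fold change without control 3 and IFNγR1KO 12. Mcl1 (−0.47) and Bbc3 (1.03) passed the test, and removal of the 2 libraries left Mcl1 at −0.44 and Bak1 at −0.44.

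Among the BH3-only genes, no member passed the test. Bcl2l11 encodes BIM, which can bind each of the anti-apoptotic proteins, and lies at chr2:128126038-128162547. It had 31, 33 and 43 counts in controls and 20, 11 and 18 in IFNγR1KO, or 3.37, 3.28 and 4.16 CPM against 2.84, 1.49 and 2.53 CPM. All 3 IFNγR1KO libraries were below all controls, with IFNγR1KO 11 lowest. The log2 fold change was −0.66 (SE 0.304, 95% interval −1.32 to 0.00), with an adjusted p of 0.174 and the widest interval of the tested members. With 1 library left out it ran from −0.84 to −0.41, the smallest in size without IFNγR1KO 11, and it was called in none of these fits. The adjusted p was 0.264 without control 3 and IFNγR1KO 12, and 0.0881 with a term for them.

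Bmf, whose protein is held at the cytoskeleton by dynein light chain 2, was at 3.47, 2.98 and 4.06 CPM in controls and 3.84, 4.20 and 5.62 CPM in IFNγR1KO. The groups overlapped, and the log2 fold change was 0.37 (95% interval −0.19 to 0.94, adjusted p = 0.381). It ran from 0.19 without IFNγR1KO 12 to 0.49 without control 3, and was called in no fit with 1 library left out. At 27 to 42 counts per library, against 11 to 43 for Bcl2l11, Bmf had the second widest interval of the tested members. They are also the closest pair of BH3-only genes in the stretch printed above, and their fold changes had opposite signs, a difference that was not tested.

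Bid encodes the protein that caspase-8 cleaves to link death receptors with mitochondria. It was at 42.3, 43.1 and 38.9 CPM in controls and 42.2, 42.5 and 47.7 CPM in IFNγR1KO, and the groups overlapped. Its log2 fold change was 0.09 (95% interval −0.20 to 0.38, adjusted p = 0.711), and −0.01 without control 3 and IFNγR1KO 12. Bcl2l13 lies on the opposite strand over 17.7% of its exonic bases.

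Bad encodes a BH3-only protein that survival kinases keep phosphorylated and bound to 14-3-3 proteins. It was at 47.9, 51.6 and 36.7 CPM in controls and 59.7, 56.1 and 40.1 CPM in IFNγR1KO. The lowest value of each group was that of control 3 and of IFNγR1KO 12. The log2 fold change was 0.19 (95% interval −0.19 to 0.58, adjusted p = 0.528), and 0.22 without those 2 libraries (adjusted p = 0.247). With 1 library left out it ran from 0.061 without control 3 to 0.35 without IFNγR1KO 12, and was not called in any of these fits. Gpr137 overlaps 20.5% of the exonic bases of Bad on the opposite strand, with a log2 fold change of 0.42 (adjusted p = 0.0621).

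To compare levels between genes, counts were divided by exonic length and scaled to 1e+06 per library (TPM). Bak1 was the most abundant member, at 164 ± 32.5 TPM in controls and 125 ± 24.9 TPM in IFNγR1KO (SD, n = 3 each), followed by Mcl1 at 128 ± 17.5 and 93.6 ± 7.55 TPM. Then came Bad (44.5 ± 3.50 and 51.8 ± 6.55 TPM), Bcl2l1 (32.2 ± 5.70 and 28.9 ± 4.56 TPM) and Bid (29.5 ± 1.36 and 32.2 ± 5.11 TPM). This order held within each of the 6 libraries, except that Bid was above Bcl2l1 in 4 of 6, control 1 and all 3 IFNγR1KO libraries. With the longest transcript as the length the order changes in places. Bcl2l1 is then above Bid in each library, and Bad is above Mcl1 in IFNγR1KO 10.

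Below these were Bcl2l2 at 13.4 ± 2.55 TPM in controls and 16.9 ± 3.77 TPM in IFNγR1KO, and Bcl2 at 6.79 ± 1.30 and 6.39 ± 1.30 TPM. The least abundant were Bmf (1.71 ± 0.43 and 2.26 ± 0.68 TPM), Bcl2l11 (1.15 ± 0.27 and 0.74 ± 0.25 TPM) and Bok (0.70 ± 0.15 and 0.72 ± 0.32 TPM). Bcl2l11 was above Bok in 5 of 6 libraries, and the counts behind Bok were too few to separate the pair. Bcl2, the namesake gene, was thus the least abundant of the 4 anti-apoptotic genes in both groups on the TPM scale.

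Summed by role, the anti-apoptotic genes made 176, 156 and 208 TPM in controls 1, 2 and 3 and 131, 144 and 163 TPM in IFNγR1KO 10, 11 and 12, which overlap. The effectors made 139, 154 and 201 TPM in controls and 112, 111 and 155 TPM in IFNγR1KO, which also overlap. Nearly all of this sum was Bak1, because Bok was low and Bax, which is outside the 10 members, was left out. Bax was at 111, 148 and 114 TPM in controls and 143, 135 and 127 TPM in IFNγR1KO, so the effector sum does not describe Bax. The 4 BH3-only genes summed to 78.1, 77.5 and 75.1 TPM in controls and 88.8, 85.8 and 86.5 TPM in IFNγR1KO, without overlap, although no single gene of them passed the test. Most of that sum was Bad and Bid, whose groups each overlapped. The separation is on the TPM scale, and in CPM the sums of the 2 groups overlap. Part of Bad also lies over Gpr137, as given above. Bbc3, also outside the 10 members, was left out of the BH3-only sum. It was at 10.94, 10.14 and 9.24 TPM in controls and 21.92, 20.85 and 20.29 TPM in IFNγR1KO.

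The ratio of anti-apoptotic to BH3-only TPM, without Bbc3, was 2.26, 2.02 and 2.77 in controls and 1.47, 1.67 and 1.89 in IFNγR1KO. All 3 IFNγR1KO values lay below the controls, and control 3 and IFNγR1KO 12 had the highest ratio of their groups. Mcl1 made 69.7% to 72.8% of the anti-apoptotic TPM in controls and 61.5% to 66.2% in IFNγR1KO. The anti-apoptotic share of all 10 genes was 42.7% ± 2.27 in controls and 40.7% ± 1.36 in IFNγR1KO, a difference smaller than the larger SD. With the longest transcript as the length it was 42.1% ± 2.13 and 39.5% ± 1.37, a difference larger than the larger SD, though the groups overlapped. That length raised the BH3-only share from 18.4% to 24.7% in controls and from 24.5% to 31.6% in IFNγR1KO. These sums weigh each transcript alike, say nothing of protein, and are given as a description without a test.

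**Figure D3:**
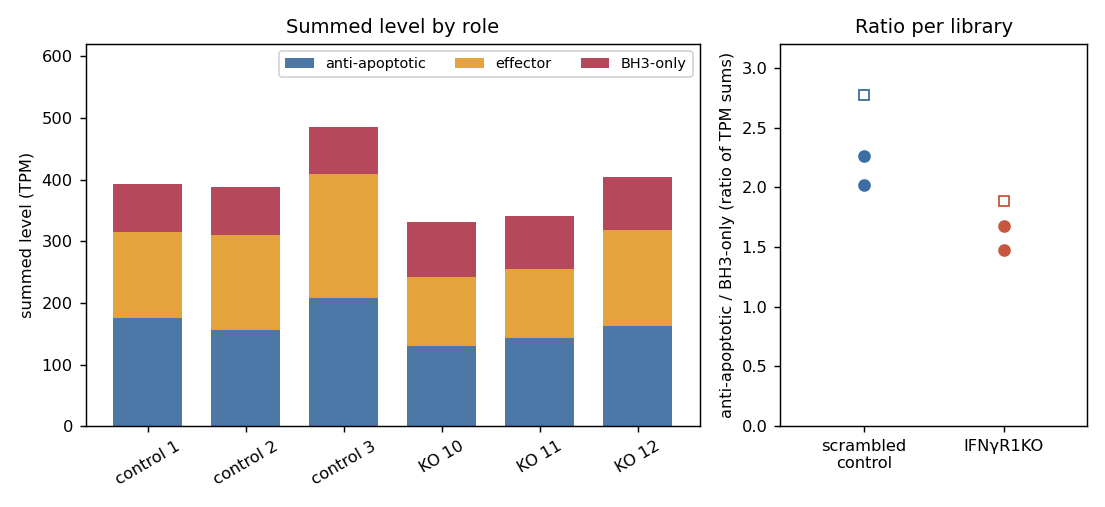
Left, summed TPM of the 4 anti-apoptotic, 2 effector and 4 BH3-only genes in each library, without Bax and Bbc3. Right, ratio of the anti-apoptotic to the BH3-only sum, 2.02 to 2.77 in controls and 1.47 to 1.89 in IFNγR1KO; open squares are control 3 and IFNγR1KO 12.

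Outside the 10 members, the family's clearest change was in Bbc3, whose product PUMA is a BH3-only protein that binds all the anti-apoptotic members and is induced by p53 and by stress factors. Bbc3 had 87, 93 and 72 counts in controls and 134, 133 and 108 in IFNγR1KO, or 9.44, 9.25 and 6.96 CPM against 19.0, 18.02 and 15.2 CPM. Every IFNγR1KO library was above every control, and the log2 fold change was 1.03 (SE 0.188, adjusted p = 0.0033), a 2.04-fold rise that was called in 13 of 13 alternative fits. Bax was at 70.8, 100.5 and 63.6 CPM in controls and 92.1, 86.6 and 70.7 CPM in IFNγR1KO. Those groups overlapped, with a log2 fold change of 0.09 (95% interval −0.30 to 0.47, adjusted p = 0.803).

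Of the 15 other family genes listed, 6 were tested and Bbc3 was the one called in the main comparison, 16.7% against 15.3% of all genes. Bnip3l was also called higher in the fit without control 3 and IFNγR1KO 12, where 22.3% of all genes were called. Its log2 fold change there was 0.39 (adjusted p = 0.0269). Of the 9 not tested, 8 had no count in any library, among them Bcl2a1a, Bcl2a1b and Bcl2a1d (close copies whose reads may not map uniquely) and Hrk, and the remaining one, Bik, had 1 count in 1 library.

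Over all 8 lists of the cell death pathway, 79 of 94 genes were tested, and 5 were called higher and 7 lower, 15.2% against the background of 15.3%. Their median log2 fold change was −0.12, and the groups did not overlap for 29 of 79 genes, 8 higher and 21 lower, or 36.7% against 32.6% of all genes (16% higher and 16.6% lower). Without control 3 and IFNγR1KO 12, 9 were higher and 14 lower, in a fit that called 22.3% of all genes. With a term for them 11 were higher and 21 lower, where 35.1% of all genes were called.

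Caspases, proteases of cell death and inflammation, had 7 of 9 genes tested with 1 higher and 1 lower. That was 28.6% of those tested, against 15.3% of all genes. Casp4, an inflammatory caspase, rose from 1.76 ± 0.14 to 5.76 ± 1.45 CPM (log2 fold change 1.71, adjusted p = 0.0019). For 6 of the 7 the groups were apart, 5 of these lower in IFNγR1KO, beside 32.6% of all genes apart and 16.6% apart and lower. Over the 7 tested caspases, log2 fold changes had a median of −0.40. Without control 3 and IFNγR1KO 12, 4 caspases were called lower and 1 higher, in the fit that called 22.3% of all genes. One of the 4 was Casp12, which did not pass the filter in the comparison of all 6 libraries.

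Of the inhibitors of apoptosis, 5 of 5 were tested, 1 higher and 1 lower. Calls were 40% of this list and 10% of that of mitochondrial release and the apoptosome, against 15.3% of all genes. Birc2, a ubiquitin ligase of death receptor signalling, rose from 13.9 ± 3.24 to 22.1 ± 3.80 CPM (log2 fold change 0.67, adjusted p = 0.0418). Birc5 encodes survivin, which also serves in cell division, and fell from 203 ± 34.8 to 121 ± 18.5 CPM (log2 fold change −0.74, adjusted p = 0.0103). Of the 10 genes of mitochondrial release and the apoptosome, only Aifm1, a mitochondrial flavoprotein, was called in the main comparison. Aifm1 was at 53.0 ± 7.32 CPM in controls and 35.7 ± 8.05 CPM in IFNγR1KO (log2 fold change −0.57, adjusted p = 0.0461). The calls for Birc2 and Aifm1 were lost without control 2, control 3, IFNγR1KO 10 or IFNγR1KO 11, where the adjusted p of Birc2 was 0.143, 0.0988, 0.134 and 0.166 and that of Aifm1 0.171, 0.0691, 0.194 and 0.186. The call for Birc5 was lost without control 2 (adjusted p = 0.0612). In the fit without control 3 and IFNγR1KO 12, Vdac1 was also called lower (adjusted p = 0.00746) and Vdac3 higher (adjusted p = 0.0495). That fit called 22.3% of all genes.

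**Figure D4:**
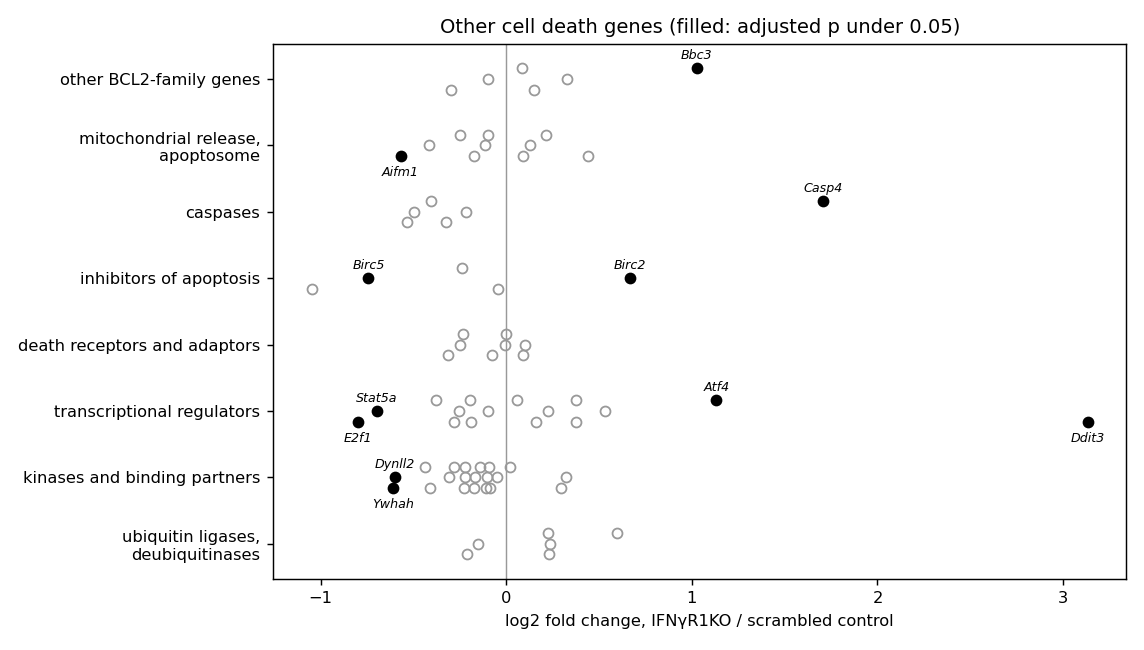
Log2 fold change of 77 of the 79 tested genes of the 8 cell death lists (IFNγR1KO against scrambled control, 3 libraries each), 1 list per row. Filled points are 11 of the 12 calls with an adjusted p under 0.05, from E2f1 at −0.80 to Ddit3 at 3.13, and points are shifted vertically only for legibility.

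Among transcription factors known to act on family genes, 16 of 18 were tested, 2 higher and 2 lower. That was 12.5% in each direction, against 7.73% higher and 7.62% lower among all genes. Ddit3 encodes CHOP, a stress factor linked to Bcl2l11 and Bbc3, and rose from 61.4 ± 10.4 to 539 ± 72.4 CPM (log2 fold change 3.13, adjusted p = 4.56e-07). Atf4, which acts upstream of Ddit3 in the integrated stress response, rose from 525 ± 76.3 to 1151 ± 92.6 CPM (log2 fold change 1.13, adjusted p = 0.00075). E2f1, a cell cycle factor, fell from 95.8 ± 11.3 to 55.1 ± 6.80 CPM (log2 fold change −0.80, adjusted p = 0.0034), and Stat5a, a cytokine-activated factor, from 31.9 ± 2.06 to 19.7 ± 1.55 CPM (log2 fold change −0.70, adjusted p = 0.0070). These 4 were called in each of 13 alternatives. In the fit without control 3 and IFNγR1KO 12, 4 of the list were called higher and 3 lower, where 22.3% of all genes were called. Myc was among those lower (log2 fold change −0.37, adjusted p = 0.0298), and was not called in the main comparison (adjusted p = 0.0723).

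Foxo3, a direct activator of Bcl2l11, had a log2 fold change of 0.53 (adjusted p = 0.0658), opposite in sign to Bcl2l11 itself. It was 0.55 with an adjusted p of 0.0157 without control 3 and IFNγR1KO 12, and with 1 library left out it ran from 0.38 (adjusted p = 0.148, without IFNγR1KO 12) to 0.70 (adjusted p = 0.0159, without control 3), the single call among those 6 fits. Trp53 was at 0.06 on the log2 scale (95% interval −0.30 to 0.41, adjusted p = 0.857), beside the rise of Bbc3. Mitf, the melanocyte factor known to act on Bcl2, was at 0.37 (adjusted p = 0.109), and at 0.42 without the 2 libraries (adjusted p = 0.0181). A link between the RNA of these factors and that of any family gene was not tested.

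Among the 21 kinases and binding partners that act on the proteins, 2 were lower and none higher in the main comparison. That was 9.52% of the list, under the 15.3% of all genes. Ywhah, a 14-3-3 protein of the kind that holds phosphorylated BAD, fell from 238 ± 6.08 to 156 ± 2.26 CPM (log2 fold change −0.61, adjusted p = 0.0065). Dynll2, the dynein light chain that binds BMF, fell from 223 ± 29.7 to 147 ± 24.5 CPM (log2 fold change −0.60, adjusted p = 0.0241), a call lost without control 2, control 3, IFNγR1KO 10 or IFNγR1KO 11 (adjusted p = 0.0867, 0.0549, 0.119 and 0.136). The call for Ywhah was lost without IFNγR1KO 11 (adjusted p = 0.0584). Akt1 was not called in the main comparison (adjusted p = 0.0896). It was called lower in the fit without control 3 and IFNγR1KO 12 (log2 fold change −0.455, adjusted p = 0.00475), where 22.3% of all genes were called. The remaining lists had no call in the main comparison. Of the death receptor and adaptor genes, 8 of 9 were tested, with 1 at an unadjusted p under 0.05. Of the ubiquitin ligases and deubiquitinases, 6 of 7 were tested, with none. Over all genes, 3948 of 13642 were under that limit. Each of these lists gained 1 call with a term for control 3 and IFNγR1KO 12, where 35.1% of all genes were called. With those 2 libraries left out, Tnfrsf1a of the death receptor list was called lower (adjusted p = 0.0333). The ubiquitin list had no call in that fit.

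By likeness over the 6 libraries, Casp2 was among the 3 of 79 cell death genes whose log2 CPM followed Mcl1 most closely (Pearson r = 0.970). The 3 closest to Bak1 were Dynll2 (0.993), Vdac1 (0.988) and Akt1 (0.984). With 3 libraries a group, these points share the difference between the groups and the departure of control 3 and IFNγR1KO 12, and the values are a description.

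Promoters from 250 bases before to 50 after the start (RefSeq, GRCm38.p6) were available for all 10 members, 16 in all, and were searched on both strands for 4 patterns. TGATGNAA, bound by ATF4 with C/EBP proteins, was in none of the members' promoters and in 3.97% of all 32817. GTAAACA, a FOXO pattern, was in the promoter of Bcl2l11, 227 bases before the start, and in 3.65% of all. The E-box CACGTG was in none (7.15% of all) and CATGTG in that of Bcl2l1 (14.2% of all). No pattern was found in this window of Mcl1, and a match or its absence says nothing of binding.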

How the data were processed

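RNA of 3 scrambled control and 3 IFNγR1KO cultures of B16 cells was sequenced after poly(A) selection. The authors deposited raw counts per gene for each library, without normalization. The submitters' processing notes name STAR 2.7.5a, HTSeq 0.11.2 and DESeq2 1.34.0 and the build GRCm38; the annotation release and the strand setting are not given in the sources used here. Rows that name no gene were left out of library sizes: no feature (46.9% to 47.7% of a table's total), ambiguous (1.57% to 1.85%) and not unique (3.76% to 4.61%).

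Symbols, positions and exonic lengths came from GENCODE M21, which holds 55154 of the 55335 identifiers. In R 4.3.3, edgeR 4.0.16 (filterByExpr with minimum count 10 and minimum total 15, TMM, quasi-likelihood test, Benjamini-Hochberg over 13642 genes) gave the main comparison, and a call is an adjusted p under 0.05. CPM are TMM-scaled. The code was tested on simulated data. Alternatives were DESeq2 1.42.0 (Wald test), RLE size factors, other filters, thinning to the smallest total, a fold threshold, transcript length, and each library left out. Leaving out control 3 and IFNγR1KO 12, or a term for both, was chosen after seeing the data. The members and lists were chosen with earlier results of these data known. Named were all members, up to 4 called genes per list and direction, Bax, Bbc3, Ddit3, Foxo3, Trp53, Mitf, Ifngr1, and the 3 genes most like each of the 2 members with the smallest adjusted p. Sequences were copied from GENCODE transcripts. The overlapping genes, and the family genes with no counts, were named outside this rule. For 2 genes that this rule selects, values are not reported here.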

Additional observations from a re-analysis of the deposited data

How the results depend on the processing

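No paired analysis was possible because the 2 groups share no replicate number in the labels. Across 9 members and 13 alternatives, 105 of 117 values kept their direction and side of the threshold, 6 gained a call, 5 lost one (all Mcl1, each with 1 library left out) and 1 changed sign (Bid, never called, −0.014 without control 3 and IFNγR1KO 12 and up to 0.13 with 1 library left out). For 17 other genes chosen by the naming rule, 197 of 221 did so, 14 lost a call, 7 gained one and 3 changed sign, none of them called: Bax (−0.045 to 0.31 with 1 library left out) and Trp53 (−0.11 to 0.17). Members called lower, 1 in the main comparison, were 2 (Mcl1 and Bak1) with DESeq2, with no filter on low counts, without control 3 and IFNγR1KO 12, and with a term for them, 0 to 2 with 1 library left out, and 0 at an absolute log2 fold change above 1. Members called higher, 0 in the main comparison, were 1 (Bcl2l2) with the term. Cell death genes called higher, 5 in the main comparison, were 9 without the 2 libraries and 11 with the term. Those called lower, 7 in the main comparison, were 11 with no filter, 14 without the 2 libraries, 21 with the term, 1 above the fold threshold, and 4 to 11 with 1 library left out. The cause of these differences was not tested. Over all genes, calls ran from 1028 to 2824 with 1 library left out, against 2093. Depth limits Bok, Bmf and Bcl2l11 most.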
